A study of Danio rerio with 24 samples.

Results

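The mRNAs of 7 inflammatory genes were followed in the livers of zebrafish larvae, and in wild-type (WT) larvae 3 of them, cxcl18b, cxcl8a and irg1l, were higher on a high-cholesterol diet (HCD). The 7 genes were the interleukin gene il1b (ENSDARG00000098700), the tumor necrosis factor genes tnfa (ENSDARG00000009511) and tnfb (ENSDARG00000013598), the chemokine genes cxcl8a (ENSDARG00000104795) and cxcl18b (ENSDARG00000075045), the acute-phase gene saa (ENSDARG00000045999) and irg1l (ENSDARG00000062788). They were the rows of the count table whose Ensembl identifiers carry these symbols, which gave 7 of 32520 genes. The gene table lists saa under the symbol SAA2, and its identifier was taken from the study's own gene names.

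The study sequenced RNA from dissected livers at 13 days post fertilization (dpf) in 4 groups, which were WT on normal control diet (WT-NCD, n=9), WT on HCD (WT-HCD, n=9), miR-21OE on NCD (miR-21OE-NCD, n=3) and miR-21OE on HCD (miR-21OE-HCD, n=3). HCD was the control feed with 10% cholesterol, started at 6 dpf, and livers were taken at 13 dpf. miR-21OE larvae carry a transgene in which fabp10a, a promoter of hepatocytes, expresses zebrafish miR-21 with the reporter Dendra2; mCherry under the cryaa promoter marks the lens. WT larvae were siblings without the transgene, so miR-21 and the other parts of the construct cannot be told apart. Each library held 13 pooled livers from a single clutch, and the labels give 9 batches. The labels do not say whether the libraries of a batch came from the same clutch. Batches 1 to 6 held 1 WT-NCD and 1 WT-HCD library each, and batches 7 to 9 held 1 library of each of the 4 groups.

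In vertebrates, interleukin 1 beta and tumor necrosis factor are released by macrophages and other cells early in inflammation, and both activate the transcription factor NF-kB in the cells that receive them. Chemokines of the Cxcl8 family call neutrophils into tissue through the receptors Cxcr1 and Cxcr2, and Cxcl18b attracts neutrophils in zebrafish. Serum amyloid A is an acute-phase protein of liver and other epithelia, and irg1l encodes a relative of Irg1 (Acod1), the mitochondrial enzyme that makes itaconate in activated mammalian macrophages.

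Libraries held 16942574 to 36641566 counts over genes. The 7 genes were rare transcripts at this depth, and over the 24 libraries they totalled 2341 counts for irg1l, 1049 for il1b, 883 for cxcl18b, 532 for tnfb, 448 for cxcl8a, 46 for saa and 24 for tnfa. Levels below are counts scaled to library size (CPM), with library sizes adjusted by the trimmed mean of M-values (TMM), and they are compared between libraries, not between genes. Hepatocyte markers, among them fabp10a, tfa and apoa2, summed to between 10322 and 83030 CPM in WT-HCD and WT-NCD livers, so the tissue matched its label. The precursor gene of miR-21 (listed as MIR21) ranged over 12 to 53 counts per WT-NCD library, 36 to 249 per WT-HCD library, 117 to 210 per miR-21OE-NCD library and 152 to 160 per miR-21OE-HCD library, so WT-HCD and miR-21OE livers overlapped. One library, WT-HCD of batch 6, stood apart. It held 2041 counts of irg1l where no other library had more than 96, and 11645 counts of the myeloperoxidase gene mpx (listed as EPX), where no other had more than 511. It was also highest for the amino acid transporter gene SLC6A19, with 2952 counts against at most 77 elsewhere, a gene named after its values were seen. Counts of calls are also given without batch 6, a choice made after the data were seen.

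**Figure D1:**
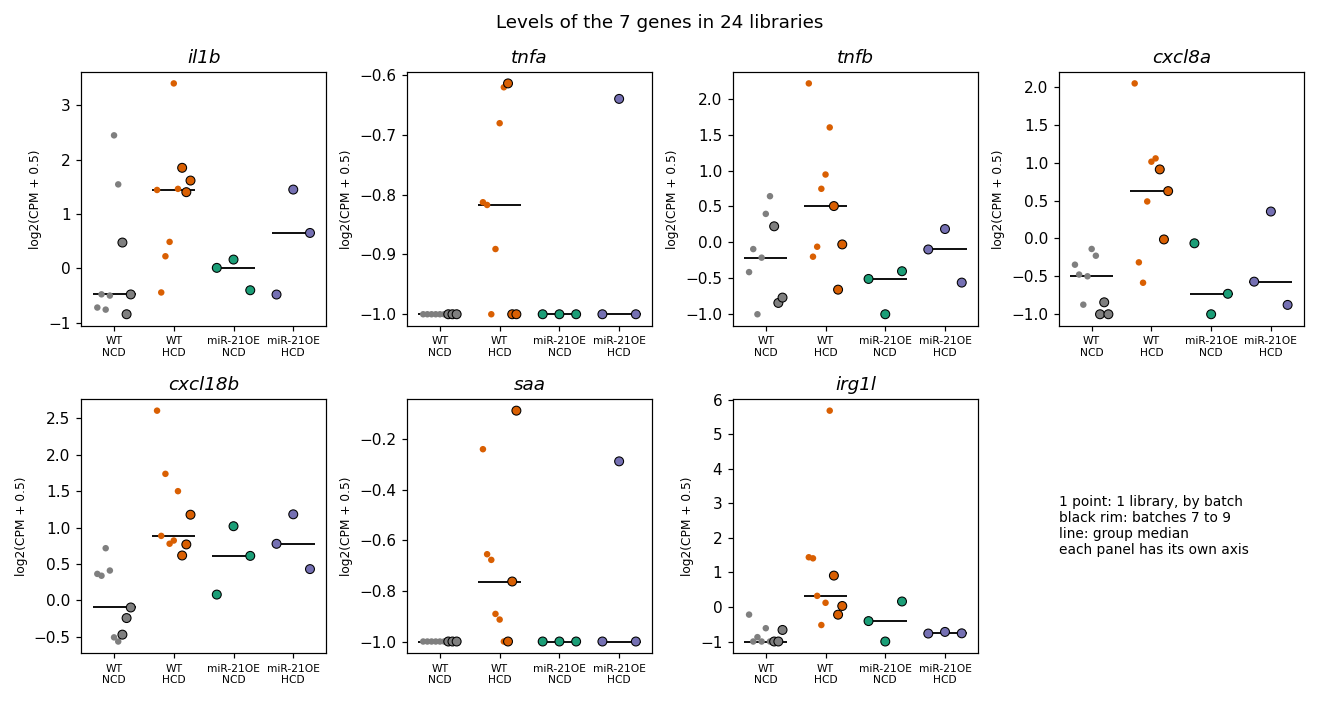
Level of each of the 7 genes in each of the 24 libraries, as log2(CPM + 0.5) on the vertical axis, by group on the horizontal axis; each point is 1 library, black rims mark batches 7 to 9, and lines are group medians. In WT livers the median was higher on HCD for all 7 genes (1.35 against 0.436 CPM for cxcl18b), tnfa and saa being without a count on NCD. The single high irg1l point is the batch 6 library at 51.1 CPM.

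To determine the effect of HCD on these genes in WT livers, the 9 WT-HCD libraries were compared with the 9 WT-NCD libraries. The chemokine genes cxcl18b and cxcl8a and the metabolic gene irg1l rose on HCD. None of the 7 fell, though tnfa and saa, without a count on NCD, could not. In edgeR's quasi-likelihood test without a batch term, 3 of 7 genes passed the threshold of an adjusted P-value (padj) of 0.05, all higher, where 0.852% of the 23934 genes tested were called higher. All 7 passed the minimum of 10 counts over the WT libraries, tnfa and saa through WT-HCD counts alone. With batch as a block, 4 of 7 passed, il1b being added, against 4.09% of all genes called higher. The median log2 fold-change (L2FC) of the 7 was 2.77, beside 0.0083 over all genes tested. tnfa and saa, at 0 counts in all WT-NCD libraries, could not lower it. With the minimum raised to 50 counts, which left out tnfa and saa, the median of the other 5 was 1.89, beside -0.0058 over all genes tested.

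cxcl18b was present in every library. Its level lay between 0.177 and 1.14 CPM (median 0.436) in WT-NCD livers and between 1.03 and 5.59 CPM (median 1.35) in WT-HCD livers. Only the highest WT-NCD library, that of batch 3, reached into the WT-HCD range, and within every one of the 9 batches the WT-HCD library was the higher. The L2FC was 1.90 ± 0.43 (SE) with padj=0.0326 in edgeR, and 1.91 ± 0.31 with padj=0.00413 with the batch block. The largest gaps were in batches 1 and 6, where 22 counts on NCD stood beside 242 on HCD, and 3 beside 93.

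cxcl8a, the zebrafish interleukin 8 gene, lay at 0 to 0.408 CPM (median 0.207) on NCD and at 0.167 to 3.63 CPM (median 1.04) on HCD. In counts, WT-NCD libraries held 0 to 8 (median 4) and WT-HCD libraries 4 to 157 (median 26). The WT-HCD libraries of batches 2 and 3, with 9 and 4 counts, overlapped the WT-NCD range and the others did not. The L2FC was 2.77 ± 0.68 (padj=0.0488 in edgeR), close to the threshold, and 2.77 ± 0.56 (padj=0.0127) with the block. All 9 batches were higher on HCD.

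For il1b the batches differed widely on both diets. WT-NCD livers ranged from 0.0577 to 4.95 CPM (median 0.218) and WT-HCD livers from 0.236 to 10.1 CPM (median 2.22), so the groups overlapped widely. In batch 5 both libraries were high, with 97 counts on NCD and 325 on HCD, whereas in batch 2 both were low, with 4 and 7. Without a batch term the L2FC of 1.40 ± 0.79 did not pass (padj=0.455 in edgeR). With batch as a block it was 2.06 ± 0.48 and passed (padj=0.0237). The level was higher on HCD in 8 of 9 batches, the exception being batch 6, at 2.42 CPM on NCD and 2.25 CPM on HCD.

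The tumor necrosis factor genes did not pass in either edgeR fit. tnfb stood at 0 to 1.06 CPM (median 0.363) in WT-NCD livers and 0.134 to 4.13 CPM (median 0.919) in WT-HCD livers, and it was higher on HCD in 8 of 9 batches. Its L2FC was 1.64 ± 0.67 (padj=0.259 in edgeR) and 1.59 ± 0.48 (padj=0.0633) with the block, and it passed in DESeq2 with the block (padj=0.0108). In batch 1 it went from 7 counts on NCD to 179 on HCD, and in batch 2 from 8 to 11.

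tnfa was at 0 counts in all 9 WT-NCD libraries. The WT-HCD libraries of batches 1 to 9 held 3, 2, 0, 1, 4, 6, 4, 0 and 0 counts. The pooled WT-HCD level was 4.64-fold a floor of 3 counts over the WT-NCD group. The floor covers counting error on NCD only, and the WT-HCD counts were taken as they stand, so this is not a lower bound on the ratio. The edgeR test did not pass (padj=0.0998, and 0.179 with the block), and with library totals it did (padj=0.0496).

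saa, like tnfa, was absent from the counts on NCD. No WT-NCD library held a count, and WT-HCD libraries of batches 1 to 9 held 15, 4, 3, 1, 1, 0, 0, 2 and 11. The pooled WT-HCD level was 8.59-fold the same floor of 3 counts over the group, with the WT-HCD counts again taken as they stand. The test gave padj=0.079 in edgeR and 0.105 with the block, so saa passed in neither fit, whereas it did with library totals in place of TMM (padj=0.0407). Counts this low put the presence of saa in 7 of 9 WT-HCD libraries on record but not its level in any one of them.

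irg1l was at 0 in 5 of 9 WT-NCD libraries. WT-NCD livers held 10, 0, 1, 0, 3, 0, 0, 0 and 3 counts in batches 1 to 9, and WT-HCD livers 96, 64, 18, 5, 19, 2041, 36, 8 and 13. Every batch was higher on HCD, and the WT-NCD library of batch 1, at 0.358 CPM, was the only one within the WT-HCD range of 0.196 to 51.1 CPM. The L2FC was 6.14 ± 1.24 (padj=0.0184 in edgeR) and 4.56 ± 0.82 (padj=0.00647) with the block. Without the WT-HCD library of batch 6 it was 3.56 (padj=0.0506), and without both libraries of batch 6 it was 3.41 ± 0.81 (padj=0.0849). With the block and without batch 6 it was 3.61 ± 0.68 (padj=0.013). The size of the change was therefore set in part by 1 library, whereas its direction was the same in all 9 batches. In the 5 batches at 0 counts on NCD it could not have been lower.

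The calls of cxcl8a and cxcl18b without a batch term were lost on leaving out any of many single libraries. Of the 18 fits that left out 1 library, cxcl8a passed in 4, cxcl18b in 10 and irg1l in 17. Leaving out the WT-HCD library of batch 6 left 0 of 7 called by edgeR (4 with the block), and so did leaving out both libraries of batch 6 (also 4 with the block). In each of these fits without a block, 6 of 7 had an unadjusted P under 0.05, beside 2804 of 23741 and 2557 of 23676 genes. The 7 include tnfa and saa, which were tested through WT-HCD counts alone and could only be higher, so nothing is read from this count. Leaving out the WT-HCD library of batch 1, or the WT-NCD library of batch 2, 6, 7, 8 or 9, left only irg1l. With the block, cxcl18b, cxcl8a and irg1l passed in all 18 fits that left out 1 library, and il1b in 16 of 18, the exceptions being the WT-NCD library (padj=0.0502) and the WT-HCD library (padj=0.0521) of batch 7. With the block, leaving out either WT library of a batch removes the diet difference of that batch. The 2 fits of a batch are therefore nearly the same check, as is the fit without both of its libraries.

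**Figure D2:**
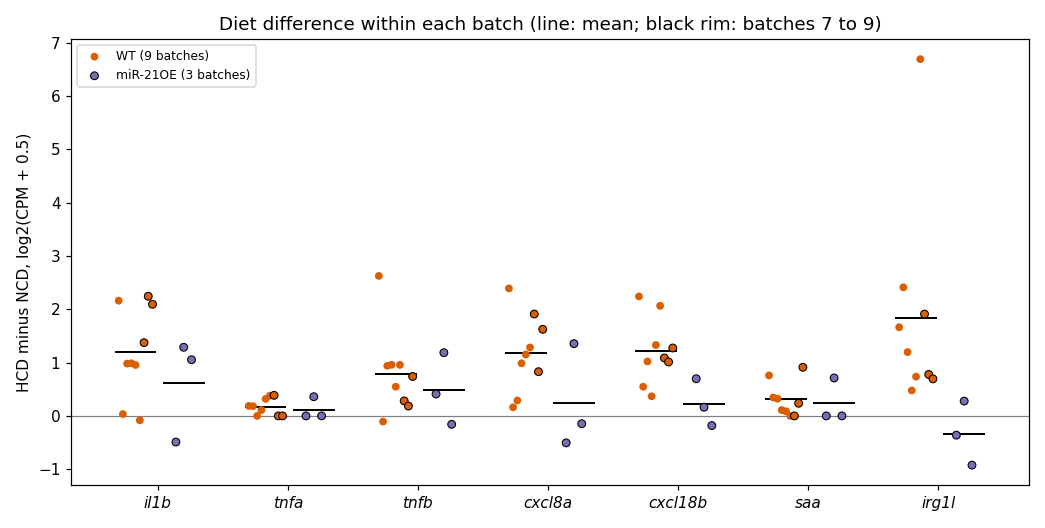
Difference between the HCD and the NCD library of the same batch and genotype, in log2(CPM + 0.5), on the vertical axis, for each gene on the horizontal axis; points are batches (orange, 9 WT batches; violet, 3 miR-21OE batches), black rims mark batches 7 to 9 and lines are means. In WT livers all points lie above 0 for cxcl8a, cxcl18b and irg1l (means 1.18, 1.22 and 1.84), whereas the miR-21OE points lie on both sides of 0 for il1b, tnfb, cxcl8a, cxcl18b and irg1l.

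The same comparison was made within batches, as the difference in log2(CPM + 0.5) between the WT-HCD and the WT-NCD library of each batch, with an exact two-sided sign-flip permutation test for each of the 7 genes. On this scale changes of rare transcripts are understated. cxcl8a, cxcl18b and irg1l were higher in 9 of 9 batches, as were 2.9% of the 23934 genes tested. Their mean differences were 1.18 ± 0.72 (SD), 1.22 ± 0.62 and 1.84 ± 1.93, and each gave an exact P=0.00391, the smallest that 9 pairs allow. il1b was higher in 8 of 9 batches (mean 1.19 ± 0.87, exact P=0.0117), and so was tnfb (mean 0.79 ± 0.79, exact P=0.00781). saa was higher in 7 batches and tied at 0 counts in the others (mean 0.31 ± 0.33, exact P=0.0156), and tnfa was higher in 6 and tied in the others (mean 0.17 ± 0.16, exact P=0.0313). Both genes were at 0 counts in all 9 WT-NCD libraries, so no difference could be negative. Their exact P reflects only how many WT-HCD libraries held a count, and nothing is read from it. In batches where the WT-NCD library held 0 counts of irg1l or cxcl8a, the difference could not be negative either. Without batch 6 the mean difference of irg1l was 1.23 ± 0.69, higher in 8 of 8 batches (exact P=0.00781). These are 7 unadjusted tests of genes chosen with earlier results of these data known. For tnfa the exact P was 0.0625 when any of the batches 1, 2, 4, 5, 6 or 7 was left out.

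Batches ranked differently for different genes. Batch 1 had the largest difference for cxcl8a (2.39), cxcl18b (2.24) and tnfb (2.63), batch 8 for il1b (2.24), batch 9 for saa (0.91) and batch 6 for irg1l (6.69). Batch 2 was among the lowest for il1b (0.03), cxcl8a (0.16) and tnfb (-0.11) and yet second only to batch 6 for irg1l (2.41). Across the 24 libraries tnfb and cxcl8a were the pair most alike (Pearson r=0.84), followed by tnfa with cxcl8a (r=0.71) and il1b with cxcl8a (r=0.67). il1b with cxcl18b (r=0.16, or 0.12 without the WT-HCD library of batch 6) was among the least alike, and saa with irg1l stood at r=0.15 with that library and at 0.48 without it. These coefficients describe 24 libraries that share diets, batches and depth, and they carry no test.

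Signs of leukocytes moved with the same diet contrast. In bulk RNA, more cells of a type and more RNA per cell cannot be told apart. The summed level of 6 neutrophil marker genes (mpx, lyz, mmp9, npsn, ncf1 and srgn) was 4.96 to 13.3 CPM in WT-NCD livers and 13.5 to 326 CPM in WT-HCD livers, higher on HCD in 9 of 9 batches with a median log2 ratio of 1.6. The 326 CPM came from the WT-HCD library of batch 6, where mpx alone held 292 CPM. The lysozyme gene lyz itself was near 0, at no more than 0.573 CPM in any WT library. General leukocyte markers (ptprc, lcp1, coro1a, rac2 and laptm5) summed to 8.47 to 27.1 CPM on NCD and 19.6 to 72.8 CPM on HCD, higher in 9 of 9 batches. Macrophage markers, 19 identifiers of which several belong to the mpeg1 and mfap4 families, summed to 29.8 to 142 CPM on NCD and 64.2 to 202 CPM on HCD, higher in 8 of 9 batches. A single mfap4 identifier made up much of this sum, with medians of 31.1 CPM on NCD and 75.6 CPM on HCD (sums 65.0 and 142 CPM). The median was lower on HCD for cd74a (2.36 to 0.958 CPM), cd74b (1.75 to 1.14 CPM) and another mfap4 identifier. The other identifiers had higher medians or medians of 0. Lymphocyte markers were at or near 0, at no more than 1.42 CPM in sum in any WT library. Hepatocyte markers went the other way, being lower on HCD in 8 of 9 batches with a median log2 ratio of -0.62.

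Summed markers of neighbouring organs followed no single direction over the batches. Intestine markers were higher on HCD in 5 of 9 batches, at 3.60 to 27 CPM in WT-NCD and 3.90 to 287 CPM in WT-HCD livers, and pancreas markers were higher in 4 of 9, at 614 to 12857 CPM and 168 to 15972 CPM. Skin keratins were higher in 5 of 9 batches (114 to 610 and 51.6 to 1168 CPM) and erythrocyte genes in 2 of 9 (4.49 to 25.0 and 1.52 to 40.5 CPM). The WT-HCD library of batch 6, the one with 2041 counts of irg1l, had the highest neutrophil sum of the 24 (326 CPM, next 49.4 CPM). Most of it was mpx, at 292 CPM. mmp9 and ncf1 were also at their highest of the WT-HCD libraries there, whereas lyz, npsn and srgn were not. That library had the second highest intestine sum (127 CPM, beside 3.60 CPM in its WT-NCD partner). Its hepatocyte sum was the second lowest (19639 CPM, beside 50047 CPM). Over the other batches the largest intestine ratios were in batch 2 (log2 ratio 3.41, irg1l difference 2.41) and batch 4 (log2 ratio 1.57, irg1l difference 0.48, the smallest of the 9). The part of these cell types in the levels of the 7 genes was not tested.

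**Figure D3:**
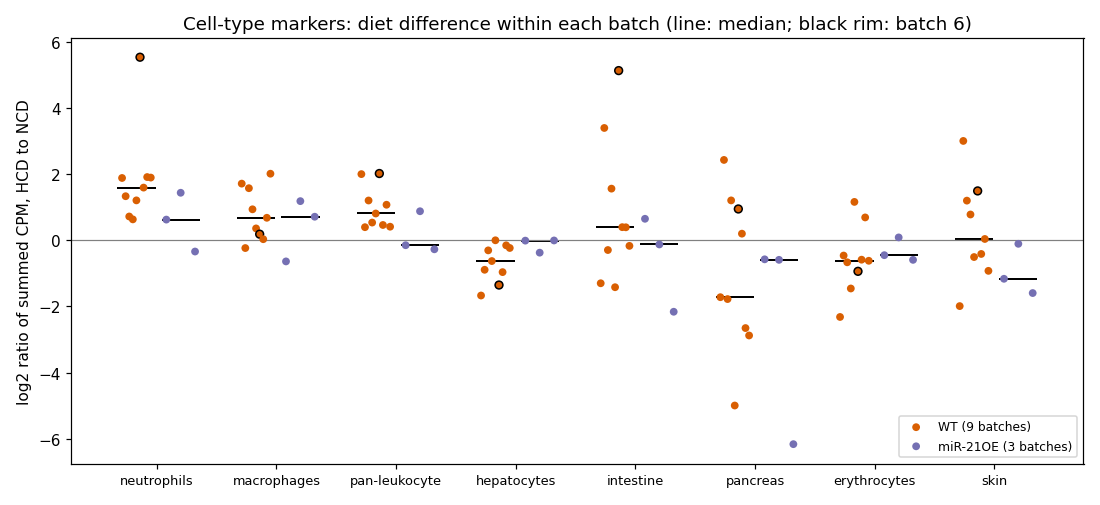
Log2 ratio of the summed CPM of each cell-type marker list, HCD to NCD library of the same batch and genotype, on the vertical axis, by list on the horizontal axis; orange points are the 9 WT batches, violet points the 3 miR-21OE batches, lines are medians and black rims mark batch 6 (lymphocyte markers, at or near 0, are left out). Neutrophil and pan-leukocyte markers were higher in 9 of 9 WT batches, and batch 6 was the highest for neutrophil and intestine markers. Most of the neutrophil sum in the WT-HCD library of batch 6 was mpx.

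Other genes of the same pathways were counted in lists, in the same WT comparison. All medians are of L2FC without a batch term and stand beside the median of 0.0083 over all genes. Of all genes 0.852% were called higher and 0.301% lower without a batch term, and 4.09% higher and 3.4% lower with the block. Without both libraries of batch 6 these shares of higher calls were 0.139% and 2.45%. Of 45 other cytokine and chemokine genes tested, 1 was called higher by edgeR without a batch term and 10 with the block, none was lower, and the median was 0.97. Without batch 6 these were 0 and 6. The single gene called without a batch term was tgfb1b, a transforming growth factor gene (padj=0.0486), named here after its values were seen. The 4 with the largest L2FC in the blocked fit were ccl34a.4, a chemokine gene of zebrafish (3.2 ± 0.41, padj=0.00109), il11a, a cytokine of the interleukin 6 family (2.89 ± 0.52, padj=0.00647), cxcl8b.1, a paralog of cxcl8a (2.0 ± 0.55, padj=0.0444), and ccl19a.1 (1.61 ± 0.40, padj=0.028). These 4 passed with the block only, and without batch 6 cxcl8b.1 did not (padj=0.0715). Of these, cxcl8b.1 went from a median of 0.229 CPM on NCD to 0.881 CPM on HCD.

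Receptor genes were also counted. Of 31 receptor genes tested, 2 were called higher without a batch term and 8 with the block, none was lower, and the median was 0.52. Without batch 6 these were 1 and 7. The first was cxcr1, whose product is a receptor for Cxcl8, at 0 to 0.255 CPM in WT-NCD and 0.357 to 3.99 CPM in WT-HCD livers without overlap (L2FC 3.79, padj=0.00556, edgeR), and it still passed without batch 6 (padj=0.0301). The second was CSF3R, the receptor of the neutrophil growth factor G-CSF (L2FC 1.99, padj=0.0211), whose median went from 1.09 to 4.04 CPM and which did not pass without a batch term when batch 6 was left out (padj=0.0958, and 0.0115 with the block). ifngr1 (3.04 ± 0.66, padj=0.0175) and il10ra (1.48 ± 0.35, padj=0.0238) passed with the block only.

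For genes that carry the signal inside the cell few calls were made, and nothing particular is read from their share. Of 35 genes of interleukin 1, tumor necrosis factor and Toll-like receptor signalling, 0 were called without a batch term and 2 with the block, tlr22 (1.21 ± 0.26, padj=0.0153) and the adaptor TRAF2 (0.62 ± 0.16, padj=0.0362), with a median of 0.29. Without batch 6 TRAF2 did not pass (padj=0.0833). At an unadjusted P under 0.05 edgeR had 5 of the 35 without a batch term, beside 14.5% of all genes, and DESeq2 called 0 without a batch term and 4 with the block, all higher, beside 5.94% of all genes. Of 10 inflammasome and interleukin 1 processing genes tested, none was called in either edgeR fit (median 0.38), and DESeq2 called 0 with or without the block. In edgeR, 0 without a batch term and 2 with the block had an unadjusted P under 0.05, beside 3476 and 5051 of all 23934 genes.

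The NF-kB list held subunits, inhibitors and induced targets, and 3 of its 25 genes were called higher without a batch term and 9 higher and 2 lower with the block (median 0.31). Without batch 6 these were 2 higher, and 7 higher and 0 lower. The 3 were PTGS2, the inducible cyclooxygenase (L2FC 3.69, padj=0.00979), tnfaip2b (2.60, padj=0.0184) and bcl3, a nuclear IkB protein (2.21, padj=0.00406). Without batch 6 PTGS2 (padj=0.0466) and bcl3 (padj=0.0208) passed and tnfaip2b did not (padj=0.0762, and 0.0232 with the block). bcl3 was between 0.479 and 2.62 CPM on NCD and between 2.12 and 10.9 CPM on HCD. irf1b passed with the block only (1.40 ± 0.36, padj=0.0353), and not without batch 6 (padj=0.0783).

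Among acute-phase and JAK-STAT3 genes, 2 of 36 were called higher without a batch term and 5 with the block, none was lower, and the median was 0.039. The 2 were complement gene c4b, from 81.8 to 192 CPM on NCD to 299 to 755 CPM on HCD (L2FC 1.93, padj=0.000157), and LECT2, a chemotactic protein made by liver, from 22.8 to 88.7 CPM to 147 to 333 CPM (L2FC 1.89, padj=0.000528). Neither overlapped between diets, nor did cxcr1, as was the case for 0.209% of all genes tested in either direction. hp, the haptoglobin gene (2.03 ± 0.56, padj=0.0432), and SOCS3, the feedback inhibitor of cytokine receptors (0.92 ± 0.18, padj=0.00942), passed with the block only. c4b and LECT2 also passed without batch 6 (padj=0.000754 and 0.00171), whereas hp with the block then did not (padj=0.0878).

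In the list of itaconate and macrophage metabolism, ACOD1, which is the Irg1 gene itself and a paralog of irg1l, was called higher (L2FC 2.91, padj=0.0211, edgeR, and 3.0 ± 0.44, padj=0.0022 with the block). It stood at 0.104 to 1.99 CPM in WT-NCD and 2.25 to 21.0 CPM in WT-HCD livers, without overlap. Of the 22 genes tested, it was the only one called higher besides irg1l, and IDH1, the cytosolic isocitrate dehydrogenase, was called lower (L2FC -1.56, padj=0.0184), from 292 to 873 CPM on NCD to 53.7 to 294 CPM on HCD. Without batch 6, ACOD1 passed with the block (padj=0.0071) and not without it (padj=0.0759), and so did IDH1 (padj=0.00088 and 0.0599). SUCLG2 and SLC25A11 were lower with the block only, and not without batch 6.

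For comparison, 9 of 21 genes on the neutrophil list were called higher without a batch term and 13 with the block (median 1.55), among them scpp8, EPX and MMP9. The list includes LECT2 and CSF3R, which were counted above, and LECT2 is made by liver. Without batch 6 the counts were 2 and 9, and EPX and MMP9 passed with the block only (padj=0.0235 and 0.00401) while scpp8 passed in neither fit (padj=0.0586 with the block). Of 29 macrophage markers tested, 2 were called higher without a batch term, SPI1 and a gene of the MFAP4 family, and 10 with the block, with ccl34a.4 and the mannose receptor MRC1 among them (median 0.72). Without batch 6 these were 0 and 6, and MRC1 did not pass (padj=0.0807 with the block). Of 13 pan-leukocyte markers, 1 was called higher without a batch term, a FERMT3 gene, and 9 with the block, including a second FERMT3 identifier, ptprc and PLEK (median 1.11). Without batch 6 these were 0 and 7. No lymphocyte marker of 15 was called by edgeR in either fit or by DESeq2, and 1 had an unadjusted P under 0.05 in edgeR without a batch term, beside 3476 of all 23934 genes.

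Some markers of other liver and epithelial cells were also called. stab2, a scavenger receptor of sinusoidal endothelium, was called higher in both fits (L2FC 3.25, padj=0.00748 without a batch term) and in 9 of 9 WT batches, and it passed without batch 6 (padj=0.0331). epcam, an epithelial adhesion gene kept on the skin list, was called higher in both fits (L2FC 1.25, padj=0.00979), in 9 of 9 batches and without batch 6 (padj=0.0412). With the block only, CDH17 and krt18b were called higher. One SOX9 identifier, a biliary transcription factor gene, was called lower (L2FC -1.44 ± 0.29, padj=0.0127) and a second SOX9 identifier, named after its values were seen, higher (0.63 ± 0.15, padj=0.024). With the block only, ELOVL6, a fatty acid elongase gene kept on the intestine list, was called lower. ELOVL6 was lower on HCD in all 9 batches (L2FC -3.94 ± 0.40, padj=0.000239 with the block). Without batch 6, CDH17 (padj=0.0534), krt18b (padj=0.0537) and the second SOX9 identifier (padj=0.0547) did not pass with the block. The first SOX9 identifier did (padj=0.0334). Of 16 hepatocyte markers 3 were called lower with the block, which were ahsg1, apobb.1 and HNF4A, and without batch 6 there were 0. No gene of the pancreas or erythrocyte lists was called in either edgeR fit.

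To test whether miR-21OE altered the genes or their response to HCD, the 12 libraries of batches 7 to 9 were compared, with 3 in each group. No member was called in any of the 5 comparisons by edgeR, with or without the batch block, and tnfa, with under 10 counts, was not tested. The share of all 21660 genes called was also near 0, at 0% for diet in WT livers (0.0831% with the block), 0.0277% for miR-21OE on NCD (0.268%), 0.00462% for miR-21OE on HCD (0.245%), 0% for diet in miR-21OE livers (0.00923%) and 0% for the interaction (0% with the block). Of the 6 members tested, those at an unadjusted edgeR P under 0.05 numbered 4 for diet in WT livers, 1 for miR-21OE on NCD, 1 for miR-21OE on HCD, 0 for diet in miR-21OE livers and 3 for the interaction. Over all 21660 genes these numbers were 881, 1115, 1074, 655 and 348, in the same order. Nothing particular is read from the counts of 0 and 1. DESeq2 called none without a batch term, and with the block it called only saa for diet in miR-21OE livers (padj=0.0105, L2FC 15.6), a gene with 9 counts in 1 of these 6 libraries and 0 in the others. Through its filter on mean counts DESeq2 gave many members no padj, and those could not be called. Without a batch term this held for every member for diet in miR-21OE livers, and with the block for every member for miR-21OE on NCD. For diet in WT livers with the block, saa, cxcl8a, irg1l and tnfb had no padj, at unadjusted DESeq2 P of 1.55e-06, 0.000385, 0.00154 and 0.325. A miss at this size does not show that the groups were alike.

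In these 3 batches alone, il1b, cxcl8a, cxcl18b and irg1l did not overlap between WT-NCD and WT-HCD livers, as was the case for 7.11% of all genes tested in either direction. il1b had 20, 1 and 5 counts in WT-NCD libraries of batches 7 to 9 and 81, 48 and 64 in WT-HCD libraries (L2FC 2.7 ± 0.87, padj=1.00 in edgeR). cxcl18b had 5, 6 and 10 counts on NCD and 27, 27 and 44 on HCD (L2FC 1.98 ± 0.51, padj=0.76). cxcl8a had 0, 1 and 0 counts on NCD and 36, 11 and 26 on HCD (padj=0.866), a ratio of 62.3 with a 95% exact counting interval of 10.8 to 2496. For irg1l, 0, 0 and 3 counts on NCD stood beside 36, 8 and 13 on HCD (padj=1.00), a ratio of 16.2 with an interval of 5.28 to 81.0, and both intervals cover counting error only. tnfb overlapped, with 15, 1 and 2 counts on NCD and 24, 3 and 12 on HCD (L2FC 0.89 ± 1.08, padj=1.00). A fit of all 24 libraries called cxcl18b, cxcl8a and irg1l for the WT diet contrast, and il1b in addition with the block. That contrast took in all 9 WT batches, not these 3 alone.

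In miR-21OE livers none of the 7 genes separated the diets. Of all genes tested 6.87% did so in either direction, and nothing particular is read from a count of 0 in 7 beside this share. il1b had 10, 15 and 5 counts on NCD in batches 7 to 9 and 5, 63 and 24 on HCD (L2FC 1.33 ± 0.84, padj=1.00 in edgeR). tnfb had 4, 0 and 5 counts on NCD and 10, 18 and 4 on HCD (L2FC 1.44 ± 1.14, padj=1.00). The chemokine gene cxcl8a had 9, 0 and 2 on NCD and 4, 22 and 1 on HCD (L2FC 0.85 ± 1.17, padj=1.00). cxcl18b had 11, 37 and 20 on NCD and 28, 50 and 19 on HCD (L2FC 0.29 ± 0.48, padj=1.00). irg1l had 5, 0 and 12 on NCD and 2, 3 and 2 on HCD (L2FC -1.55 ± 1.22, padj=1.00). saa and tnfa were at 0 in all miR-21OE libraries apart from the miR-21OE-HCD library of batch 8, which held 9 and 4 counts. That library was the highest of the 6 miR-21OE libraries for il1b, tnfb, cxcl8a, cxcl18b, saa and tnfa, and not for irg1l.

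On NCD, 1 of the 7 genes, cxcl18b, did not overlap between miR-21OE and WT livers. This is near the share over all genes tested, 9.47% in either direction. cxcl18b had 0.558, 1.53 and 1.03 CPM in miR-21OE and 0.223, 0.346 and 0.436 CPM in WT. The L2FC was 1.63 ± 0.51, and it did not pass (padj=0.754 in edgeR). For il1b (0.23 ± 0.88), tnfb (-0.85 ± 1.2), cxcl8a (3.11 ± 1.62) and irg1l (2.50 ± 1.34), padj was between 0.989 and 1.00. Over the 9 WT-NCD libraries cxcl18b ranged from 0.177 to 1.14 CPM, so the WT level of batches 7 to 9 lay in the lower part of the range of all WT batches.

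On HCD, 1 of the 7 genes, irg1l, did not overlap, again near the share over all genes tested, 10.1% in either direction. irg1l was at 0.0868, 0.106 and 0.0893 CPM in miR-21OE-HCD livers and 1.38, 0.357 and 0.521 CPM in WT-HCD livers. Its L2FC was -2.93 ± 1.2 and did not pass (padj=0.956 in edgeR). il1b (-1.14 ± 0.80), tnfb (-0.30 ± 1.05), cxcl8a (-1.51 ± 1.1) and cxcl18b (-0.062 ± 0.47) all had padj=1.00.

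**Figure D4:**
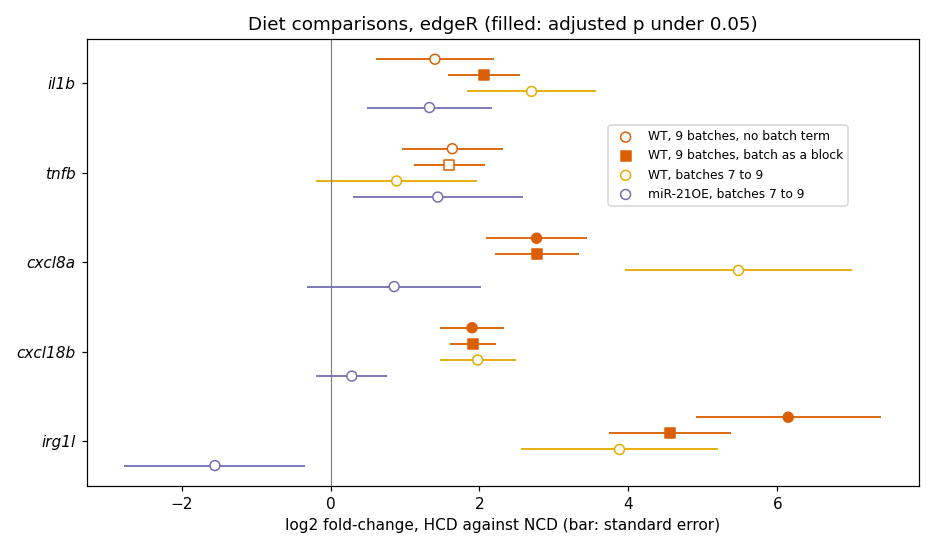
L2FC of HCD against NCD on the horizontal axis for the 5 members with enough counts in both fits, on the vertical axis; bars are standard errors, filled marks have padj under 0.05 in edgeR, and colors and shapes give the libraries and the fit. cxcl18b lay near 1.9 in the WT fits and at 0.29 in miR-21OE livers. irg1l lay at 6.14 in 9 WT batches without a batch term, a value set in part by the WT-HCD library of batch 6. Without both libraries of batch 6, a fit not plotted, it lay at 3.41 and did not pass. In the 3 batches that held both genotypes, irg1l lay at 3.88 ± 1.32 in WT and at -1.55 ± 1.22 in miR-21OE livers.

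The difference between the diet responses was itself tested as the genotype-by-diet interaction, in which a negative value means a smaller response in miR-21OE livers. The interaction L2FC was -5.43 ± 1.79 for irg1l, -4.62 ± 1.95 for cxcl8a, -1.69 ± 0.69 for cxcl18b, -1.37 ± 1.19 for il1b and 0.55 ± 1.54 for tnfb. None passed (padj=1.00 for each in edgeR), and over the alternative settings the lowest padj of any of these was 0.657, for irg1l. In miR-21OE livers the neutrophil marker sum was 7.31 to 10.1 CPM on NCD and 8.03 to 19.9 CPM on HCD, higher in 2 of 3 batches. The macrophage sum was higher in 2 of 3 batches and the pan-leukocyte, hepatocyte, intestine and erythrocyte sums in 1 of 3. Pancreas and skin sums were higher in 0 of 3, and pancreas markers ranged over 380 to 27549 CPM on NCD and 253 to 1391 CPM on HCD. The part of these tissues in the values above was not tested.

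The genes whose levels followed each member most closely were listed over the 24 libraries, among the 11696 other genes that averaged 50 counts or more. For il1b they were TPH1 (Pearson r=0.92), aftphb (r=0.90) and RTKN (r=0.88). For cxcl8a they were FMNL1 (r=0.90), SPTLC2 (r=0.89) and the G-CSF receptor gene CSF3R (r=0.89). For tnfb they were si:dkey-118k5.3 (r=0.91), sdcbp2 (r=0.89) and CD63 (r=0.89), and for cxcl18b they were MANBA, MAPRE1 and PAK2 (r=0.85 each). For irg1l they were EPX (r=0.90), ATP8A1 (r=0.88) and si:ch211-153b23.4 (r=0.87), and without the WT-HCD library of batch 6 these fell to 0.74, 0.73 and 0.82. Their ranks were then 65, 81 and 15, so these 3 were closest to irg1l only with that library. For tnfa they were ACSBG2 (r=0.87), flna (r=0.85) and si:ch211-129c21.1 (r=0.83), and for saa gfra3 (r=0.72), si:ch211-9d9.1 (r=0.70) and BACE2 (r=0.67), both from libraries mostly at 0 counts. The libraries share batches, diets and depth, so these coefficients are a description.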

How the data were processed

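Libraries were made from total RNA with a directional, ribosomal-RNA-depleting kit. The deposited values were raw counts of reads per gene in 24 libraries; the submitters' processing notes name cutadapt 1.16, STAR 2.7.9a, featureCounts 1.6.3 and the GRCz11 build, and the counting strand setting is not given in the sources used here. Symbols came from a gene table and the study's own names. Members and lists were chosen with earlier results of these data known. Genes with at least 10 counts over the fitted libraries were tested with edgeR 4.0.16 (R 4.3.3; TMM, quasi-likelihood, Benjamini-Hochberg), in 18 WT libraries or the 12 of batches 7 to 9; DESeq2 1.42.0, other scalings, filters and left-out libraries were alternatives. Batches pair the libraries: same-batch libraries share a batch label, and their deviations from group means correlated in all 9 WT pairs (mean r=0.61, lowest 0.39) and all 18 pairs of batches 7 to 9 (mean 0.44, lowest 0.15). P-values measure the spread between pools of livers. Only the edgeR fits of the 18 WT libraries were tested on simulated data. These data had no batch effect and the same dispersion for all genes, with changes only in genes of higher counts than tnfa or saa. The fits of 12 libraries and DESeq2 were not tested in this way. No 2 libraries of a group were identical. All members are described; in each other list up to 4 genes past the threshold in either fit were named by L2FC in the blocked fit, and 3 genes of highest Pearson r per member. A gene picked by this rule is not reported here.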

Additional observations from a re-analysis of the deposited data

Results flagged for a closer look

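In 12 groups of 9 WT libraries with any counts, a library far from the other 8 was looked for. The rule marks about 5% of groups by chance only where values are normally distributed. Levels of rare transcripts are skewed upward, so the 5% is no measure for these groups. Such a library was found in 6 of the 12, each time above the others. il1b was far above the others in both libraries of batch 5, at 4.95 CPM in WT-NCD (next 2.42 CPM) and at 10.1 CPM in WT-HCD (next 3.1 CPM). In the WT-HCD library of batch 1, cxcl8a was at 3.63 CPM (next 1.58 CPM) and cxcl18b at 5.59 CPM (next 2.84 CPM). irg1l was at 0.358 CPM in the WT-NCD library of batch 1 (10 counts, next 0.153 CPM) and at 51.1 CPM in the WT-HCD library of batch 6 (next 2.22 CPM).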

How the results depend on the processing

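In WT livers of 9 batches edgeR called 3 members, and this was 5 by DESeq2 with the batch block (il1b and tnfb added), 5 with library totals in place of TMM (saa and tnfa added), 6 with library totals and the block (all but tnfa), and 0 without batch 6, a setting chosen after the data were seen; cxcl8a missed the threshold with RLE size factors (padj=0.0511) and with no count filter (padj=0.0552). Leaving out 1 library gave 0 to 3, and the cause was not tested. With library totals the median L2FC of all genes was 0.38, and 819 genes were called higher and 55 lower, or 3455 and 365 with the block added, beside 204 and 72 with TMM, 978 and 813 with the batch block, 682 and 302 by DESeq2 and 1422 and 1746 by DESeq2 with the block. il1b, tnfb, cxcl8a, cxcl18b and irg1l kept their higher direction under all of these. tnfa and saa, without a count in any WT-NCD library, could not turn. For WT diet in 3 batches, no alternative limited to those batches called a member, though DESeq2 gave some members no padj there. Fits of all 24 libraries take the WT means over all 9 batches, and for WT diet they called 3 members, or 4 with the block added. For diet in miR-21OE livers, members called went from 0 to 1 by DESeq2 with the block. The paired difference of tnfa ranged over 0.15 to 0.20 with 1 batch left out, with the exact P at 0.0313 or 0.0625. With library totals in the paired test, il1b and tnfb were higher on HCD in 9 of 9 WT batches (exact P=0.00391 each), beside 8 of 9 with TMM. Directions that turned belonged to values that missed the threshold throughout. For miR-21OE on NCD, il1b was -1.12 with all 24 libraries and -0.28 with the block added, and -0.22 to 1.66 with 1 library left out, and tnfb was -1.45 to 0.96 with 1 left out. For miR-21OE on HCD, tnfb was 0.18 with the replicate block, 0.30 by DESeq2 with the block, 0.25 with library totals and the block, and -0.75 to 0.43 with 1 library left out; cxcl18b was 0.0057 with library totals, 0.0035 with the block added, and -0.38 to 0.18 with 1 left out. For diet in miR-21OE livers, leaving out 1 library gave -0.74 to 2.69 for cxcl8a and -0.030 to 0.67 for cxcl18b. For the interaction, tnfb was -0.19 with all 24 libraries and -1.26 to 1.29 with 1 left out. Depth limited saa and tnfa, with 46 and 24 counts in all, and no fit could give tnfa a value in the 12 libraries under the filter.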
